A study of Mus musculus with 4 samples.

Results

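The 9 genes described here encode the kinases, transcription factors and feedback inhibitors of STAT3 and STAT5 signalling: the Janus kinases Jak1 and Jak2, the transcription factors Stat3, Stat5a and Stat5b, and the inhibitors Cish, Socs1, Socs2 and Socs3. They were chosen by gene symbol from the 54446 genes of the deposited table, and 9 of the 9 had a value above 0 in all 4 libraries, as did 17787 genes of the whole table. RNA was sequenced from mammary gland cells of wild type C57BL/6 mice, sorted by flow cytometry into cells labelled basal and cells labelled luminal. The sorted cells were embedded in growth factor-reduced Matrigel and grown as 3D cultures under a medium that held insulin, transferrin, selenium and epidermal growth factor (EGF). Cells of each label received either 100 μM baicalin, a flavonoid glycoside, or its solvent DMSO as the control, and the age and the number of mice are not given library by library, although the methods give an age range of female mice for cell preparations as a whole. Each of the 4 conditions had 1 library, so no p-value is given and no difference has a replicate check.

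In this pathway a cytokine or hormone brings its receptor chains together, the Janus kinases bound to them phosphorylate the receptor, and STAT proteins dock there, are phosphorylated, pair and enter the nucleus. Among the genes they switch on are the SOCS genes and Cish, whose proteins bind the receptor or the kinase and restrain the same signal. In the mammary gland, prolactin acting through JAK2 and STAT5 drives alveolar development and milk gene expression, whereas LIF and oncostatin M acting through gp130 and STAT3 drive cell death and remodelling after weaning.

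The recovered depth was 19356107 to 20648789 fragments per library, and levels are given as FPKM, fragments per kilobase of exon scaled to library depth. A ratio is the plain ratio of 2 FPKM values, with an exact 95% interval from the recovered fragments that covers counting error only. Where a luminal ratio is divided by a basal ratio, the 95% interval is approximate. It comes from a normal approximation on the log scale and also covers counting error only. A change on the log2 scale is log2((FPKM + 1)/(FPKM + 1)), which understates the change of low genes, and its threshold was 1 in either direction. The basal markers went against the labels, and the luminal markers were mixed. All 10 basal markers were higher in the library labelled luminal than in the library labelled basal, both with DMSO and with baicalin, and their summed FPKM was 1639 and 426 in the basal-labelled DMSO and baicalin libraries against 5064 and 6061 in the luminal-labelled ones. The summed FPKM of 13 luminal markers was 3851 and 2393 against 1222 and 920 in the same order, a sum carried by Krt8, Krt18 and Epcam. By count, 5 of the 13 were higher in the luminal-labelled library with DMSO, among them Pgr at 1.08 against 4.81 FPKM, Foxa1 at 1.80 against 9.30 and Esr1 at 0.992 against 1.44, and 2 of the 13 with baicalin. Libraries are therefore named by their label only. Both marker sums differed between DMSO and baicalin, and their part in the results was not tested. Fewer cells of a type and less RNA per cell cannot be told apart in such bulk libraries. The immune markers Ptprc, Cd3e and Itgam were at or below 0.038 FPKM in every library, while Cd68, a lysosomal protein, reached 51.5 FPKM in the basal-labelled baicalin library. Cd74 was at 0.179 and 0.455 FPKM in the basal-labelled DMSO and baicalin libraries and at 0.513 and 3.30 FPKM in the luminal-labelled ones. Of the 8 immune markers, 2 were higher with baicalin in the basal-labelled and 5 in the luminal-labelled libraries. Summed FPKM was 5.06 to 52.0 for the 8 immune markers, 2.60 to 10.4 for 6 fibroblast markers and 0.848 to 3.20 for 4 endothelial markers.

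With baicalin the feedback genes of the STAT5 branch, Cish and Socs2, were higher in the libraries of both labels, and Stat3 and its feedback gene Socs3 were lower in both. Stat5a and Stat5b were higher in the basal-labelled and lower in the luminal-labelled baicalin library. Jak1 and Jak2 differed little. In the basal-labelled libraries 1 of the 9 genes, Socs2, passed the threshold, against 5.48% of the 17787 genes tested. The counting interval of the ratio left out 1 for 6 of the 9, with 4 higher and 2 lower, against 54.4% of all genes, so most genes at this depth differ between 2 single libraries beyond counting error. In the luminal-labelled libraries 0 of the 9 genes passed the threshold, against 3.95% of all genes, and the interval left out 1 for 6 of them, with 2 higher and 4 lower, against 51.6%. The median change of the 9 genes was 0.10 on the log2 scale in the basal-labelled libraries and -0.02 in the luminal-labelled ones, beside 0.01 and -0.02 over all genes tested. Read against these shares, neither count sets the 9 genes apart from the rest.

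**Figure D1:**
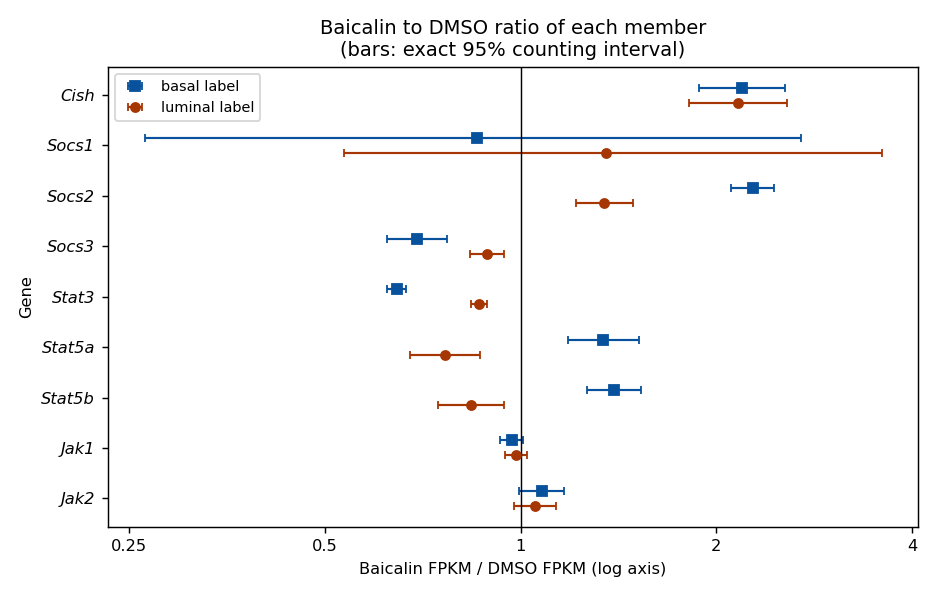
Ratio of baicalin FPKM to DMSO FPKM (log axis) for each of the 9 genes, with blue squares for the basal-labelled and brown circles for the luminal-labelled libraries, 1 library per condition, and bars for the exact 95% counting interval. The points of Cish lie together at 2.19 and 2.16, those of Socs2 lie apart at 2.27 and 1.35, and those of Stat5a and Stat5b lie on opposite sides of 1.

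Cish encodes CIS, an SH2 protein known as a direct target gene of STAT5 and an inhibitor of cytokine receptors that signal through it. The gene (ENSMUSG00000032578, GRCm38 chromosome 9, 107296026 to 107302784, plus strand) was at 1.96 FPKM in the basal-labelled DMSO library, 4.29 in the basal-labelled baicalin library, 1.53 in the luminal-labelled DMSO library and 3.30 in the luminal-labelled baicalin library. Both baicalin libraries thus lay above both DMSO libraries. The ratio to DMSO was 2.19 (1.88 to 2.55) in the basal-labelled libraries, from 250 and 559 fragments, and 2.16 (1.81 to 2.57) in the luminal-labelled ones, from 190 and 437. The luminal ratio divided by the basal ratio was 0.985 (0.786 to 1.24), and this interval holds 1. With 1 FPKM added to each value, the log2 changes were 0.84 and 0.76, short of the threshold. Cish was past the threshold in both pairs of libraries when 0.1 FPKM or nothing was added, with changes of 1.09 to 1.13 and 1.06 to 1.11. In Cish transcripts 7.93% of the 75-base stretches also occur in Gm17040 or Gm17041. Exons of these genes overlap Cish exons by 261 and 479 bases on the opposite strand, and fragments from there could have been assigned elsewhere.

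STAT dimers recognise a short palindrome known as the GAS motif, and it was found for 2 of the 8 genes that had a promoter window. RefSeq promoter windows on GRCm38.p6, which run from 250 bases before a transcript's start to 50 bases after it, were found for 8 of the 9 genes, as 10 windows, and there was none for Socs2. The letters TTCNNNGAA, which read the same on both strands, occurred in the windows of Cish and Socs3 and in 8.3% of 32851 windows of all genes. The 30 bases around them are shown because these are the feedback genes on the STAT5 and the STAT3 side, with the motif in capitals:
Cish, chr9:107296654-107296683, plus strand: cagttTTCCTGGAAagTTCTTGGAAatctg
Socs3, chr11:117969501-117969530, minus strand: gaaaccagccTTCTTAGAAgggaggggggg
The Cish window held 2 copies, at bases 1 to 9 and 12 to 20 counted from the RefSeq start, and 30 of the 30 bases shown lie in GENCODE exons of Cish. The Socs3 window held 1 copy, 154 to 146 bases before the RefSeq start, and 0 of its 30 bases shown lie in an exon of Socs3, although they lie within the gene's bounds. A match in these letters is a description of the sequence and not a measured binding site.

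Socs2 encodes an inhibitor of growth hormone receptor signalling and is another known STAT5 target. It (ENSMUSG00000020027, chromosome 10, 95385362 to 95417180, minus strand) was at 5.14 FPKM in the basal-labelled DMSO library, 11.7 with baicalin, 3.60 in the luminal-labelled DMSO library and 4.84 with baicalin. The basal-labelled baicalin library stood well above the other three. The ratio was 2.27 (2.11 to 2.45) in the basal-labelled libraries, a log2 change of 1.05, and 1.35 (1.22 to 1.49) in the luminal-labelled ones, a log2 change of 0.35. The second ratio divided by the first was 0.592 (0.523 to 0.670), so for Socs2, unlike for Cish, the interval of the difference leaves out 1. Of the 75-base stretches in Socs2 transcripts, 3.16% also occur in another gene, and fragments from those could have been assigned elsewhere.

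Socs3 encodes the inhibitor that binds gp130 together with the Janus kinases, and it is induced by STAT3. The gene (ENSMUSG00000053113, chromosome 11, 117966079 to 117970047, minus strand) was at 15.1 and 10.5 FPKM in the basal-labelled DMSO and baicalin libraries and at 41.7 and 37.0 FPKM in the luminal-labelled ones. Both luminal-labelled libraries stood above both basal-labelled ones. The baicalin to DMSO ratio was 0.694 (0.625 to 0.770) in the basal-labelled and 0.888 (0.838 to 0.942) in the luminal-labelled libraries, and neither passed the threshold. Socs1 (ENSMUSG00000038037, chromosome 16), an inhibitor of the kinases themselves and best known from interferon signalling, was near the limit of detection with 8, 7, 9 and 13 fragments in the same order of libraries, or 0.119 to 0.217 FPKM. Its ratios of 0.856 (0.264 to 2.70) and 1.35 (0.535 to 3.59) show no difference detectable at this depth.

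**Figure D2:**
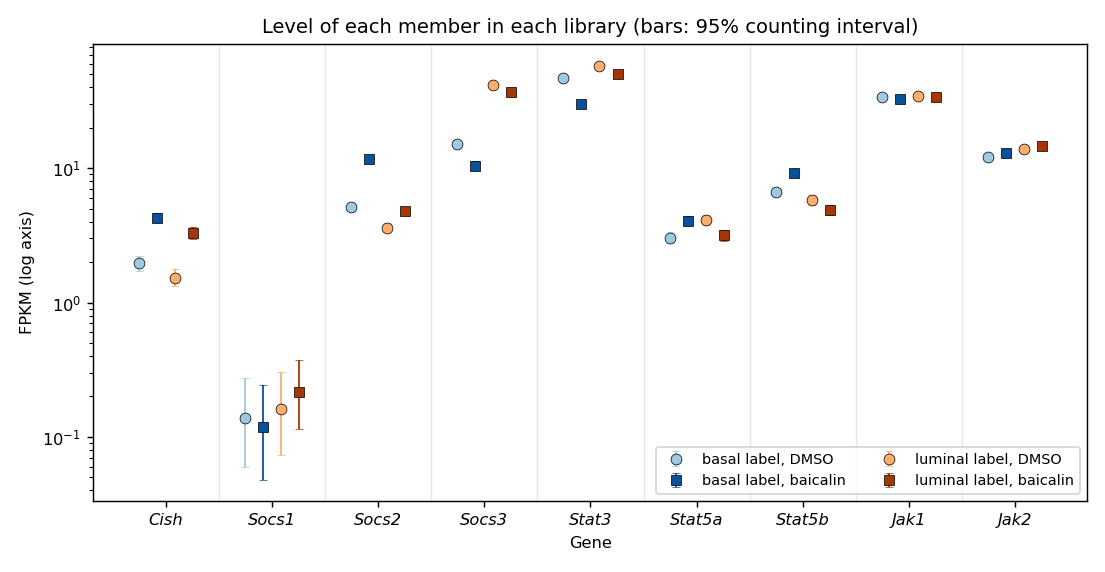
FPKM (log axis) of the 9 genes in each of the 4 libraries, with light circles for DMSO, dark squares for baicalin, blue for the basal label, orange and brown for the luminal label, and bars for the 95% counting interval of 1 library. Stat3, Jak1 and, in the luminal-labelled libraries, Socs3 stand highest, Socs1 lies near 0.1 to 0.2 FPKM, and the baicalin squares of Cish lie above both of its DMSO circles.

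Stat3 was the most abundant of the 9 genes in 3 of the 4 libraries, and in the basal-labelled baicalin library Jak1 was above it. Stat3 (ENSMUSG00000004040, chromosome 11, 100885098 to 100939540, minus strand) was at 46.7 FPKM in the basal-labelled DMSO library, 30.1 with baicalin, 57.8 in the luminal-labelled DMSO library and 49.9 with baicalin. The ratio was 0.645 (0.624 to 0.667) in the basal-labelled and 0.864 (0.841 to 0.888) in the luminal-labelled libraries. Stat3 and Socs3 were thus lower with baicalin under both labels, and both by more in the basal-labelled libraries: the luminal ratio divided by the basal ratio was 1.34 (1.28 to 1.40) for Stat3 and 1.28 (1.14 to 1.44) for Socs3. Their changes on the log2 scale, -0.62 and -0.49 in the basal-labelled and -0.21 and -0.17 in the luminal-labelled libraries, did not pass the threshold.

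Stat5a and Stat5b encode the closely related STAT5 proteins, of which STAT5A is the main one in alveolar development. The genes neighbour each other and Stat3 on chromosome 11. Stat5a (ENSMUSG00000004043, 100859351 to 100885169, plus strand) was at 3.04 and 4.07 FPKM in the basal-labelled DMSO and baicalin libraries and at 4.14 and 3.16 FPKM in the luminal-labelled ones. Stat5b (ENSMUSG00000020919, 100780731 to 100850724, minus strand) was at 6.68 and 9.28 FPKM in the basal-labelled and at 5.80 and 4.87 FPKM in the luminal-labelled libraries. For both genes baicalin stood above DMSO under the basal label and below it under the luminal label. The ratios were 1.34 (1.18 to 1.52) and 0.765 (0.676 to 0.866) for Stat5a and 1.39 (1.26 to 1.53) and 0.839 (0.747 to 0.943) for Stat5b. The difference between the labels, as the luminal ratio divided by the basal ratio, was 0.571 (0.479 to 0.679) for Stat5a and 0.604 (0.520 to 0.70) for Stat5b. None of these changes passed the threshold. Stat5a and Stat5b share 5.12% and 6.99% of their 75-base stretches with each other, so a small part of their fragments is of uncertain origin. Stat5a and Stat3 overlap by 72 exon bases on opposite strands, and the strand setting of the authors' counting is not given in the sources used here.

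The balance of the STAT genes differed between libraries more than any STAT gene alone. Stat5a and Stat5b together came to 9.71 FPKM in the basal-labelled DMSO library, 13.4 with baicalin, 9.94 in the luminal-labelled DMSO library and 8.03 with baicalin. Stat3 was 4.81 times their sum in the basal-labelled DMSO library and 2.26 times with baicalin, but 5.82 and 6.22 times in the luminal-labelled libraries. The feedback genes showed the same order in the basal-labelled libraries, where Socs3 was 2.93 times Socs2 with DMSO and 0.895 times with baicalin. In the luminal-labelled libraries Socs3 was 11.6 times Socs2 with DMSO and 7.64 times with baicalin. Stat5b was 2.20 and 2.28 times Stat5a in the basal-labelled and 1.40 and 1.54 times in the luminal-labelled libraries. These ratios compare transcript levels per exon length and say nothing of phosphorylated protein.

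Jak1 and Jak2 encode the kinases that carry the gp130 and the prolactin and growth hormone signals, respectively. Jak1 (ENSMUSG00000028530, chromosome 4) lay between 32.8 and 34.4 FPKM in the 4 libraries, and the interval of each ratio held 1, with 0.969 (0.931 to 1.01) for baicalin over DMSO in the basal-labelled libraries and 0.983 (0.945 to 1.02) in the luminal-labelled ones. Jak2 (ENSMUSG00000024789, chromosome 19) was at 12.1 and 13.1 FPKM in the basal-labelled and at 13.9 and 14.6 FPKM in the luminal-labelled libraries, with baicalin to DMSO ratios of 1.08 (0.996 to 1.17) and 1.05 (0.978 to 1.13). The kinases thus varied least of the 9 genes over the 4 libraries.

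Between the labels, Socs3 was the member that differed most. With DMSO 1 of the 9 genes passed the threshold, Socs3, which was 2.76 times as high (2.56 to 2.99) in the luminal-labelled library, against 8.56% of all genes, and the interval left out 1 for 7 of the 9, against 60.6%. With baicalin 2 of the 9 passed, against 8.23% of all genes, and the interval left out 1 for 7 of the 9, against 59.5%. These were Socs3, 3.54 times as high (3.24 to 3.88) in the luminal-labelled library, and Socs2, at 0.415 times (0.384 to 0.448) its level in the basal-labelled one. Stat3 was 1.24 times (1.2 to 1.27) as high in the luminal-labelled library with DMSO and 1.66 times (1.61 to 1.71) with baicalin. Stat5b was at 0.869 (0.780 to 0.969) and 0.525 times (0.473 to 0.582) its basal-labelled level. Stat5a was higher in the luminal-labelled library with DMSO and lower with baicalin, with ratios of 1.36 and 0.777. The libraries of the 2 labels also differ in every basal marker listed, and the labels and this cell makeup cannot be told apart here.

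Receptors and ligands that feed the pathway were read as lists. Of 13 genes for gp130-family and related STAT3 receptors, 9 were tested, and 0 passed the threshold upward and 2 downward under each label, beside 3.33% of all genes downward in the basal-labelled and 1.59% in the luminal-labelled libraries. The 2 were Cntfr, the ciliary neurotrophic factor receptor, and Lifr, the receptor chain that binds LIF. Cntfr was at 8.08 and 0.673 FPKM in the basal-labelled DMSO and baicalin libraries and at 38.7 and 10.5 FPKM in the luminal-labelled ones. Lifr was at 4.20 and 1.10 FPKM and at 31.1 and 11.0 FPKM in the same order, so both were lower with baicalin under either label, with log2 changes between -1.31 and -2.44. Osmr, the oncostatin M receptor chain, was at 12.5 and 8.30 FPKM and at 23.4 and 13.6 FPKM and did not pass. Il6st, which encodes gp130 itself, was at 24.8 to 32.4 FPKM in the 4 libraries.

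Among 10 gp130-family and related ligands, 7 were tested, and none passed the threshold in the basal-labelled libraries, while 2 passed upward in the luminal-labelled ones, beside 2.37% of all genes. With 0.1 FPKM or nothing added these counts were 1 in the basal-labelled and 4 and 5 in the luminal-labelled libraries, and on TPM they were 1 and 4. The counts over all genes rose at these settings as well, as given below. The 2 were Lif, at 4.54 FPKM with DMSO and 14.5 with baicalin, and Csf3, the granulocyte growth factor, at 2.56 and 9.56 FPKM. In the basal-labelled libraries Lif was at 55.3 and 64.2 FPKM and Csf3 at 34.0 and 39.8 FPKM, above both luminal-labelled libraries. Csf3r, the receptor gene for Csf3, had 0 fragments in every library. Il6 had 22, 2, 3 and 6 fragments in the basal-labelled DMSO and baicalin and the luminal-labelled DMSO and baicalin libraries, all below 0.46 FPKM. Its ratio was 0.0890 (0.0101 to 0.362) in the basal-labelled libraries, on so few fragments, and that of the luminal-labelled ones held 1. The LIF receptor chain and its ligand thus lay in opposite order between the labels, with Lifr highest where Lif was lowest.

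Of 15 genes for STAT5-coupled receptors and the ligands Thpo and Tslp, 11 were tested. In the basal-labelled libraries 1 passed, beside 5.48% of all genes, and in the luminal-labelled ones 2 passed, beside 3.95%. With 0.1 FPKM added the counts were 3 and 4, and with nothing added 4 and 6. The counts over all 17787 genes rose as well, from 975 and 703 to 2425 and 1965 and to 3747 and 3096. Prlr, the prolactin receptor and a luminal marker, was at 6.50 and 1.60 FPKM in the basal-labelled and at 2.40 and 0.688 FPKM in the luminal-labelled libraries, lower with baicalin under both labels. Its log2 changes were -1.53 and -1.01, and it was the single gene of this list past the threshold downward in each. The second lies at the edge: when changes were centred on the median change, 1 of the 2 genes of the list that passed in the luminal-labelled libraries was left. The single gene past the threshold upward was Tslp, a cytokine made by epithelium, at 3.33 and 20.5 FPKM in the luminal-labelled libraries, and at 13.8 and 8.40 FPKM in the basal-labelled ones. Of the genes for its receptor chains, Crlf2 was at 3.37 to 6.87 FPKM and Il7r had 0 fragments in every library. Ghr, the growth hormone receptor, was at 6.06 and 8.39 FPKM in the basal-labelled and at 6.49 and 4.68 FPKM in the luminal-labelled libraries. Egfr, the receptor of the EGF in the medium, was at 14.4 and 10.1 FPKM and at 16.3 and 23.7 FPKM. Neither passed. Under both labels, then, Prlr was lower and Cish and Socs2 were higher with baicalin.

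Stat2, which carries interferon signals, passed the threshold downward in the basal-labelled libraries. It was at 16.9 and 6.21 FPKM there and at 5.43 and 4.39 FPKM in the luminal-labelled libraries, where it did not pass. Stat6, the interleukin 4 STAT, was at 24.3 to 34.3 FPKM, Tyk2 at 4.44 to 9.85 FPKM and Jak3 at 1.12 to 2.78 FPKM. Stat4 had at most 18 fragments in a library and was not tested. Of 7 interferon and STAT6 receptor genes, 1 passed upward in the luminal-labelled libraries, beside 2.37% of all genes. None passed in the basal-labelled libraries, beside 5.48% of all genes in either direction. The gene that passed was Il4ra, the interleukin 4 receptor chain, at 18.6 and 39.6 FPKM. It was at 20.9 and 20.2 FPKM in the basal-labelled libraries.

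No gene passed the threshold among those that work with or beside the SOCS proteins, which with 5.48% and 3.95% of all genes past it is near the background for lists of this size. This covers all 4 other SOCS genes, Socs4 to Socs7, for all 4 elongin and cullin partners through which SOCS proteins mark their targets for degradation (Elob, Eloc, Cul5 and Rnf7), and for all 10 phosphatase, PIAS and adaptor genes that restrain the pathway, under both labels. Their median log2 changes were -0.02, -0.05 and -0.04 in the basal-labelled and -0.05, -0.01 and -0.15 in the luminal-labelled libraries. Socs5 was the most abundant of the other SOCS genes at 20.4 to 24.8 FPKM, and Socs7 was at 7.04 and 7.15 FPKM in the basal-labelled and at 12.9 and 8.80 FPKM in the luminal-labelled libraries.

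**Figure D3:**
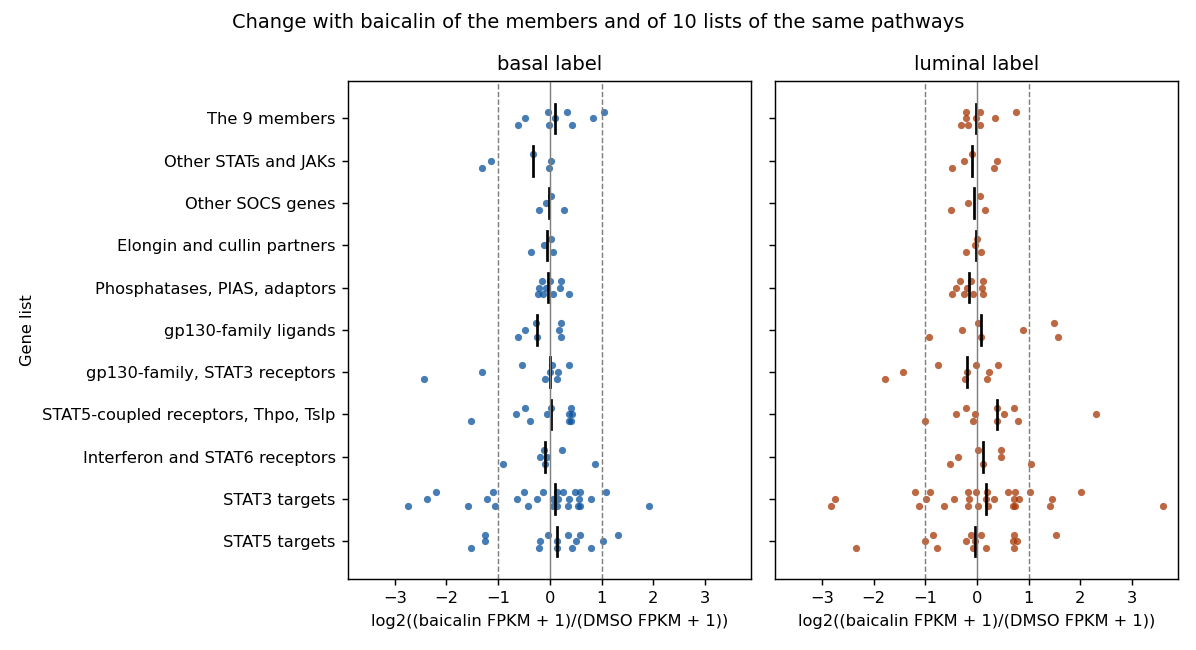
Change with baicalin on the log2(FPKM + 1) scale for the 9 genes and for 10 lists of pathway genes, basal-labelled libraries on the left and luminal-labelled on the right, with 1 point per gene tested, a black bar at each list's median and dashed lines at the threshold of 1. Points of the SOCS, elongin and phosphatase lists stay inside the dashed lines, while receptors, ligands and targets reach beyond them on both sides.

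Known targets of STAT3 passed the threshold in both directions. Of 28 tested, 2 passed upward and 7 downward in the basal-labelled libraries and 5 upward and 4 downward in the luminal-labelled ones, beside 2.15% and 3.33% of all genes in the first and 2.37% and 1.59% in the second. The median changes were 0.10 and 0.18, beside 0.01 and -0.02 over all genes. Vegfa, an angiogenic growth factor, was at 27.3 and 106.5 FPKM in the basal-labelled and at 17.7 and 75.1 FPKM in the luminal-labelled libraries. Myc, a growth regulator, was at 37.7 and 81.6 FPKM and at 14.6 and 40.8 FPKM. Both were higher with baicalin under either label.

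Other STAT3 targets were lower. Igfbp5, a binding protein of insulin-like growth factors that is known from involution, was at 211.3 and 70.3 FPKM in the basal-labelled and at 749 and 110.9 FPKM in the luminal-labelled libraries. The acute phase gene Hp, haptoglobin, was at 21.6 and 3.93 FPKM and at 19.8 and 8.11 FPKM. Birc5, an inhibitor of apoptosis that is made in dividing cells, was at 14.1 and 1.25 FPKM and at 14.6 and 7.37 FPKM, and passed in the basal-labelled libraries. Timp1, a protease inhibitor, was at 74.9 and 13.6 FPKM in the basal-labelled libraries and passed downward there, but it was at 24.6 and 43.7 FPKM in the luminal-labelled ones.

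In the luminal-labelled libraries acute phase genes went opposite ways. Saa3, serum amyloid A3, was at 0.238 and 14.0 FPKM there, from 12 and 754 fragments, and at 5.35 and 3.52 FPKM in the basal-labelled libraries. Fgg, a fibrinogen chain, was at 8.42 and 0.324 FPKM in the luminal-labelled and at 1.32 and 0.118 FPKM in the basal-labelled libraries. It passed downward in both. Steap4, a metalloreductase, was at 24.8 and 10.9 FPKM in the luminal-labelled and at 14.6 and 5.75 FPKM in the basal-labelled libraries, and also passed downward in both. Klf4, a transcription factor, was at 19.3 and 54.3 FPKM in the luminal-labelled libraries. In the basal-labelled ones it was at 34.1 and 41.0 FPKM and did not pass. Bcl3, a nuclear cofactor of NF-kB, was at 5.80 and 3.37 FPKM in the basal-labelled and at 3.26 and 6.14 FPKM in the luminal-labelled libraries, and Cebpd, a transcription factor of involution, lay between 2.45 and 3.85 FPKM in all 4, and neither passed.

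Targets of STAT5 were mixed as well. Of 22 listed, 15 were tested, and 2 passed upward and 3 downward in the basal-labelled and 1 upward and 2 downward in the luminal-labelled libraries, with the same shares of all genes past it as for the STAT3 targets and medians of 0.14 and -0.04. Xdh, xanthine dehydrogenase, which takes part in milk fat secretion, was at 17.1 and 35.6 FPKM in the basal-labelled and at 9.23 and 28.5 FPKM in the luminal-labelled libraries and passed upward in both. Areg, the EGF receptor ligand amphiregulin, was at 63.2 and 158.4 FPKM and at 21.4 and 37.6 FPKM, and passed in the basal-labelled libraries. The kinase gene Pim1, held to be a target of both STATs, was at 28.7 and 43.6 FPKM and at 22.4 and 37.3 FPKM and stayed short of the threshold.

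Downward, Elf5, the regulator of alveolar cell fate, was at 14.9 and 5.63 FPKM in the basal-labelled libraries and passed there, and it was at 6.51 and 3.18 FPKM in the luminal-labelled ones. Prlr is given above. Csn3, kappa-casein, was at 2.67 and 0.546 FPKM and at 4.54 and 0.0933 FPKM and passed in both. It falls below the level set for naming genes and was named, like Csn1s1, after its values were seen. Csn1s1, alpha-S1-casein, had 141 and 0 fragments in the basal-labelled and 431 and 13 in the luminal-labelled libraries. With a limit of 3 fragments in place of the 0, it was 48-fold lower with baicalin in the basal-labelled ones. The exact interval of its baicalin to DMSO ratio there ran from 0 to 0.026. The milk protein genes Csn2, Wap and Csn1s2a had 0 or 1 fragment in every library, and Tnfsf11, the RANK ligand gene, had at most 3. Elf5, Csn3, Prlr and Areg are also on the list of luminal markers, of which 2 of 13 were higher with baicalin in the basal-labelled and 1 of 13 in the luminal-labelled libraries, and the part of cell makeup in these values was not tested.

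**Figure D4:**
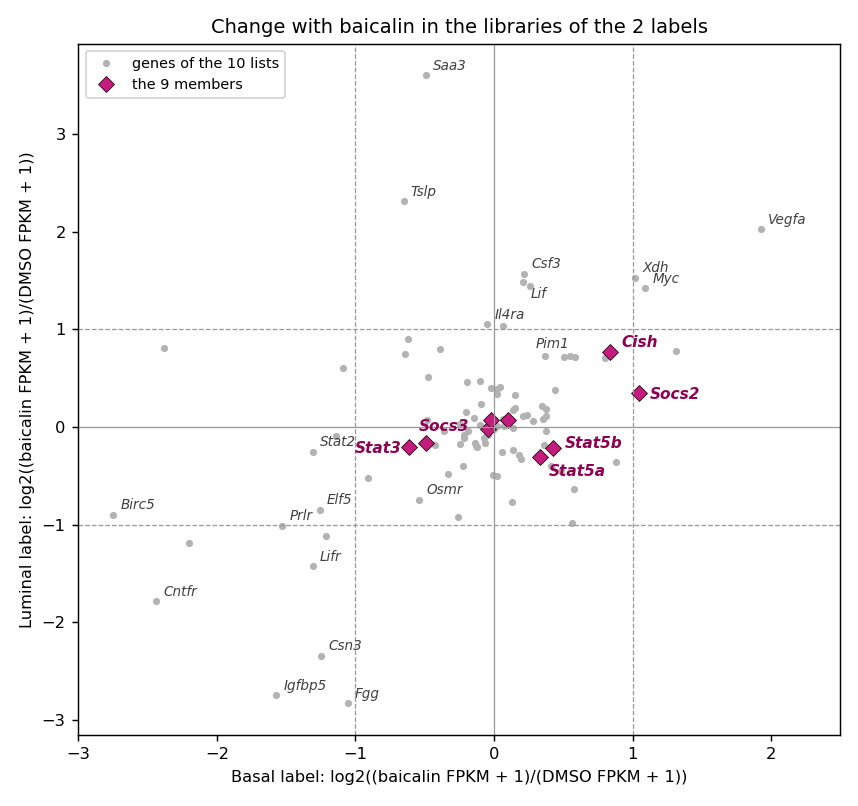
Change with baicalin on the log2(FPKM + 1) scale in the basal-labelled libraries (horizontal) against the luminal-labelled libraries (vertical), with diamonds for the 9 genes and grey points for the tested genes of the 10 lists, and dashed lines at the threshold of 1. Cish and Socs2 lie to the upper right, Stat3 and Socs3 to the lower left, Stat5a and Stat5b to the lower right, and the unlabelled diamonds of Jak1, Jak2 and Socs1 near the centre.

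Socs2 was the member past the threshold with baicalin, and its pattern over the 4 libraries was compared with that of 9153 genes that reached 5 FPKM in some library, by the Euclidean distance between log2(FPKM + 1) values centred on each gene's mean. The nearest were Pttg1ip at a distance of 0.13, Gadd45b, a stress-induced gene, at 0.14, Gm38079 at 0.14, Zfp958 at 0.16 and Naglu, a lysosomal enzyme, at 0.16. Gadd45b was at 68.4 and 130.1 FPKM in the basal-labelled and at 48.6 and 67.7 FPKM in the luminal-labelled libraries, the order seen for Socs2. With 4 libraries such likeness is a description, since many genes share any one order.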

How the data were processed

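RNA of 4 cultures was enriched with oligo(dT) beads and made into stranded libraries (KAPA kit). Reads were mapped by the authors to GRCm38 (HISAT2) and summed over genes of Ensembl release 94 (featureCounts), and the values they deposited are FPKM for 54446 genes. The submitters' processing notes also name Bowtie 0.12.2 and the build mm8, with no role given. FPKM multiplied by the exon length in GENCODE release 21, found for 54409 genes, fell on whole fragments within 0.05 for 98.5% to 98.7% of low genes, which gave the depth, so that 1 fragment on 1 kb of exon was worth about 0.05 FPKM. The recovered fragments served for Clopper-Pearson intervals of single ratios, which are exact, and not for a count test, since each condition had 1 library. Intervals of a luminal ratio divided by a basal ratio used a normal approximation on the log scale.

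Changes were computed with a pseudocount of 1 FPKM on the 17787 genes above 0 in all 4 libraries, as in the study's filter, and called past a log2 change of 1. The study's t-test needs replicates and was not run. The 10 pathway lists (115 distinct genes, 115 found by symbol) were written from general knowledge, and list genes were named when past the threshold and at 5 FPKM or more in either library compared, at most 4 per list and direction, beside fixed receptors, ligands, STAT and JAK genes and targets. The 9 genes, the lists and this rule were chosen with earlier results of these data known. Alternatives were other pseudocounts, filters, scalings and thresholds. The computation was tested on simulated data. The tools were scipy 1.17.1, pandas 2.3.3, numpy 2.4.6 and matplotlib 3.10.9 under Python 3.11.15. Promoter sequences came from RefSeq. Some items withheld for evaluation are not reported here.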

Additional observations from a re-analysis of the deposited data

Results flagged for a closer look

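Stat5a and Stat5b stood out because the libraries of the 2 labels moved in opposite directions with baicalin. The baicalin to DMSO ratio of Stat5a was 1.34 in the basal-labelled and 0.765 in the luminal-labelled libraries, and that of Stat5b was 1.39 and 0.839. The difference was not tested across replicates, since each condition has 1 library, and the intervals given above cover counting error only.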

How the results depend on the processing

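Each condition has 1 library, so a left-out replicate could not be tried, and no paired analysis was possible because no group has a second library. Changes of the 9 genes were recomputed over 7 alternative settings (2 pseudocounts, 3 filters, TPM, centring). Of 252 such changes, 236 shifted by no more than the margin of their counting interval, and 16 shifted by more. That margin runs from the middle of the interval to its end, on the log2 scale. The 3 filters select genes and leave each change as it is, so their part of the 236 was fixed in advance. Among changes whose interval left out 1, 0 changed sign. Only TPM and centring could have changed a sign, since a pseudocount or a filter cannot. With a pseudocount of 0.1 FPKM or none, 2 of the 9 genes (Socs2 and Cish) passed the threshold in the basal-labelled and 1 (Cish) in the luminal-labelled libraries. At a threshold of 1.5-fold, 3 (Socs2, Cish and Stat3) and 1 (Cish) passed. At a log2 threshold of 2, 0 passed in the basal-labelled libraries and 0 between the labels with DMSO. Over all genes, the counts past the threshold in the basal-labelled, the luminal-labelled and the DMSO libraries of both labels were 975, 703 and 1523. They were 2425, 1965 and 3494 with a pseudocount of 0.1 FPKM, 3747, 3096 and 4798 with none, 1698, 1296 and 2585 on TPM, 2672, 2190 and 3815 at a threshold of 1.5-fold, and 173, 106 and 335 at a log2 threshold of 2. Of 80 list counts, 67 stayed within 1.5 times their value. Socs1, with 7 to 13 fragments, had an interval that held 1 in each of its 4 comparisons.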

Other observations

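A few other genes of the same lists had values in opposite order under the 2 labels, and they were named after their values were seen. Pik3r1, a regulatory subunit of phosphoinositide 3-kinase, was at 26.3 and 39.6 FPKM in the basal-labelled DMSO and baicalin libraries and at 30.7 and 19.4 FPKM in the luminal-labelled ones. Fos, an immediate early gene, was at 30.6 and 45.8 FPKM and at 59.7 and 29.8 FPKM. Ifnlr1, the interferon lambda receptor chain, was at 5.78 and 11.5 FPKM and at 9.74 and 7.35 FPKM. In the other direction, Clcf1, a ligand of the ciliary neurotrophic factor receptor, was at 23.3 and 14.8 FPKM in the basal-labelled and at 3.12 and 6.69 FPKM in the luminal-labelled libraries, and Icam1, an adhesion molecule, was at 12.7 and 5.41 FPKM and at 25.7 and 39.6 FPKM.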
